A study of Mus musculus with 6 samples.

Results

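Cholesterol synthesis and its control were described in the adrenal glands of adult female C57Bl/6J mice, for the enzymes that lead from acetyl-CoA to cholesterol and for the proteins that release or hold back the sterol regulatory element binding proteins (SREBPs). Members were taken from a list of 29 gene symbols, each matched to the probe sets whose annotation gave that symbol alone, and 26 genes were found and tested among the 14727 genes tested in all. The list held 22 symbols of enzymes, of which 20 genes were tested, and 7 symbols of SREBP regulation, of which 6 genes were tested. Sc4mol is an older symbol of Msmo1, which was tested. Acat2 was not analysed here. Mbtps2 was also not analysed here, since its probe set shares a symbol with another gene. The brightest probe set stood for Idi1 and Fdft1, the members with more than 1.

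The CGP group came from mothers dosed with CGP 39551 (CGP), which blocks glutamate receptors of the NMDA (N-methyl-D-aspartate) type, by mouth at 5 mg/kg body weight from the start of pregnancy to the end of weaning. The control group was labelled as control, with no word on a vehicle, and both groups held female C57Bl/6J offspring whose adrenals were snap frozen at 21 weeks of age. RNA of 18 mice was pooled in each group and measured on 3 Affymetrix whole-transcript arrays. Nothing says whether the 3 arrays carried 1 pool or separate pools, so every p-value measures only the spread between arrays, which may be technical.

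Animal cells build cholesterol from acetyl-CoA. The first steps lead to mevalonate, which is turned into isoprenoid units, then squalene, then lanosterol, the first sterol, and at last cholesterol. SREBP-2, made from Srebf2, switches on the genes of this pathway, and SREBP-1, made from Srebf1, acts more on fatty acid synthesis. Both are held in the endoplasmic reticulum by Scap and the Insig proteins while sterols are plentiful, and are cut free by the site-1 and site-2 proteases in the Golgi when sterols run low. The adrenal cortex uses cholesterol as the starting material of all its steroid hormones and obtains it both from lipoproteins and by its own synthesis.

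The promoter sequences of Insig1, Hmgcs1, Ggps1 and Insig2 are shown because these 4 genes had the smallest p-values among the members. Each is 1 window of 250 bases that ends just before a RefSeq start site (assembly GRCm38.p6), written 5′ to 3′ on the strand of the gene. Capitals mark the letters CACCCCAC (the core of a sterol regulatory element), CCAAT (the box bound by NF-Y), GGGCGG (the GC box bound by Sp1) or CACGTG (an E-box), on either strand, so that ATTGG and CCGCCC are the CCAAT box and the GC box read from the other strand. Insig2 has 3 windows in the table, and the one farthest upstream is shown.
Insig1, chr5:28071162-28071411, plus strand: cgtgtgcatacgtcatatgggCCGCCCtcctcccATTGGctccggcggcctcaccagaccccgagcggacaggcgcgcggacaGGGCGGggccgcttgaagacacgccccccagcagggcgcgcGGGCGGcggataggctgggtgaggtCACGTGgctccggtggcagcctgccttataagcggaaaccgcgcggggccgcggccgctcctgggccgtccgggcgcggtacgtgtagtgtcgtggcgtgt
Hmgcs1, chr13:119690101-119690350, plus strand: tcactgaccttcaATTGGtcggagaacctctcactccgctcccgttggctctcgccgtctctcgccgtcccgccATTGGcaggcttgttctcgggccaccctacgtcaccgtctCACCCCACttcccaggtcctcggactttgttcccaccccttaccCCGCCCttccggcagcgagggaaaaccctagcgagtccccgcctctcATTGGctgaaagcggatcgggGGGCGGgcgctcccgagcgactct
Ggps1, chr13:14063489-14063738, minus strand: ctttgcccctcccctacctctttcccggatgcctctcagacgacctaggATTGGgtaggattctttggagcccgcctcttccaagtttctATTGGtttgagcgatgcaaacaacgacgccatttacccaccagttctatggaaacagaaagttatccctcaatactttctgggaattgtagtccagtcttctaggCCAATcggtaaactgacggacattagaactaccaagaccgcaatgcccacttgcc
Insig2, chr1:121332590-121332839, minus strand: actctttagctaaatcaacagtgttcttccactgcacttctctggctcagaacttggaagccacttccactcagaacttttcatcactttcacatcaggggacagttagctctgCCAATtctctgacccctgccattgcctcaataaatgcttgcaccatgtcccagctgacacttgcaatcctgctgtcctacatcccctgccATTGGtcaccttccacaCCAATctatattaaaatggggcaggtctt

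In these letters, the Hmgcs1 window held the sterol regulatory element core 136 bases before the start, with 3 CCAAT boxes and 2 GC boxes. The Insig1 window held 1 CCAAT box, 3 GC boxes and 1 E-box, and no CACCCCAC. Only CCAAT boxes were found in the windows shown for Ggps1 and Insig2, 3 in each. The windows of Insig2 not shown each held 1 GC box and no CCAAT box. RefSeq windows were found for 22 of the 26 members (30 windows), and none was used for Acat1, Fdps, Fdft1 and Sqle. CACCCCAC stood in 1 of the 30 member windows, beside 2.58% of all 32851 windows. CCAAT stood in 70.0% of the member windows and 33.8% of all windows, GGGCGG in 76.7% and 32.7%, and CACGTG in 16.7% and 6.02%. These are counts of letters. Nothing was measured on the binding of any factor, and a window without a set of letters says nothing about the gene outside it.

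Insig1 was the only member that passed the test over the 16034 probe sets with 1 gene symbol and sufficient signal, and it was higher in the CGP group. The Insig proteins hold Scap and the SREBPs in the endoplasmic reticulum, and Insig1 is itself a target gene of SREBP. Its log2 values were 10.97, 10.86 and 10.99 on control arrays 1 to 3 and 11.23, 11.21 and 11.17 on CGP arrays 1 to 3. The lowest CGP array was thus above the highest control array. The log2 difference of CGP minus control was 0.27 ± 0.05 (SE), a 1.2-fold higher level, with a 95% interval of 0.15 to 0.39 (limma, adjusted p = 0.0357). With probe sets of no or several symbols added to the test, the adjusted p was 0.0791 and the call was lost. It was also lost when any array other than control array 1 was left out, with adjusted p between 0.0734 and 0.150, while the difference itself stayed between 0.22 and 0.29.

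Of the 26 members, 1 passed as higher, 0 as lower, and 25 did not pass (limma, adjusted p under 0.05). Of all 16034 probe sets tested, 3.53% passed, 1.94% as higher and 1.59% as lower, so that the members' share of calls was near the background. At an unadjusted p under 0.05 there were 6 members, 4 higher and 2 lower, or 23.1% beside 19.3% of all probe sets. The groups did not overlap in 10 members, 5 higher and 5 lower, or 38.5% beside 26.3% of all probe sets. The median log2 difference was 0.03 over the members and -0.01 over all probe sets tested, and 57.7% of the members had a difference above 0 against 45.6% of all. No member was dim: each was above background, the 75th percentile of 127 sensory receptor probe sets, on all 6 arrays.

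**Figure D1:**
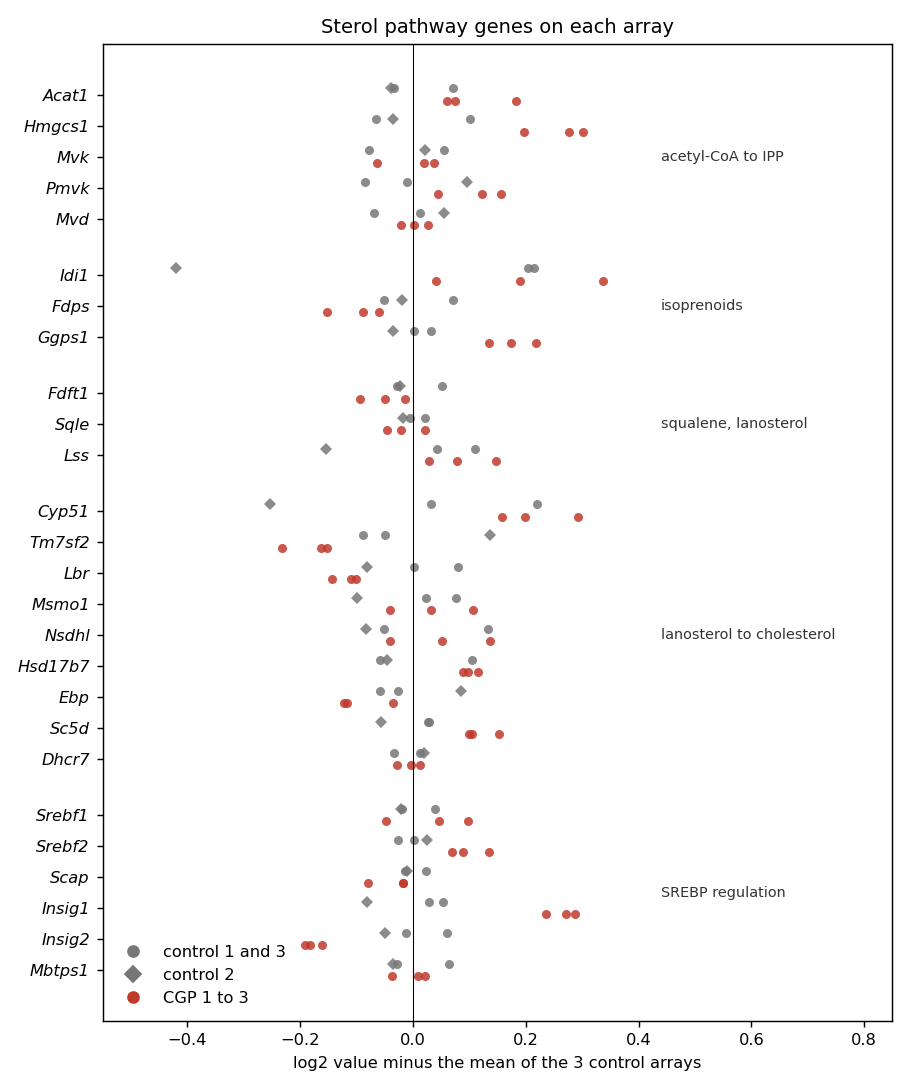
Log2 value of each of the 26 members on each array, minus the mean of the 3 control arrays of that gene; grey marks are control arrays, the diamond being control array 2, red circles are CGP arrays, and genes are grouped by their place in the pathway (IPP, isopentenyl diphosphate). Insig1, Hmgcs1, Ggps1, Sc5d and Srebf2 have all CGP arrays to the right of all control arrays. Insig2, Tm7sf2, Lbr, Fdps and Scap have them to the left, in Fdps and Scap by a narrow margin. Control array 2 stands apart in Idi1 and Cyp51.

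Insig2 lay on the other side of 0 from Insig1 and did not pass. Insig2 encodes the second Insig protein, which binds Scap in the same way and is not a classical SREBP target. It measured 9.82, 9.78 and 9.89 on the control arrays and 9.65, 9.64 and 9.67 on the CGP arrays, and all CGP values were below all control values. The log2 difference was -0.18 ± 0.05 (SE), with an interval of -0.29 to -0.07 and an adjusted p of 0.0932 (limma). Insig1 minus Insig2 on the same array ranged from 1.08 to 1.15 (log2) over the control arrays and from 1.51 to 1.58 over the CGP arrays. The difference between groups was 0.44 (exact two-sided permutation test, p = 0.1, the smallest that 3 against 3 arrays allow). That measure was chosen after the values had been seen. Since all CGP arrays were higher in Insig1 and lower in Insig2, the groups had to separate on it. This p was therefore fixed in advance and adds no support. The measure is no ratio of the levels of the 2 genes, since their probe sets differ.

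The SREBP genes themselves did not pass. Srebf1 was at 9.72, 9.72 and 9.78 on the control arrays and 9.83, 9.78 and 9.69 on the CGP arrays, with overlapping groups and a log2 difference of 0.03 (interval -0.09 to 0.15, adjusted p = 0.772). Srebf2 was at 9.73, 9.78 and 9.76 against 9.82, 9.89 and 9.85. Its groups did not overlap, with the CGP arrays higher, and its difference of 0.10 had an interval of -0.01 to 0.20 (limma, adjusted p = 0.279). Scap, the sterol sensor that escorts the SREBPs to the Golgi, differed by -0.04 (interval -0.14 to 0.06, adjusted p = 0.671). Its CGP arrays, from 10.60 to 10.66, all lay below its control arrays by a margin far smaller than the width of that interval. Mbtps1, the site-1 protease that makes the first cut, differed by -0.002 (interval -0.11 to 0.11, adjusted p = 0.986).

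**Figure D2:**
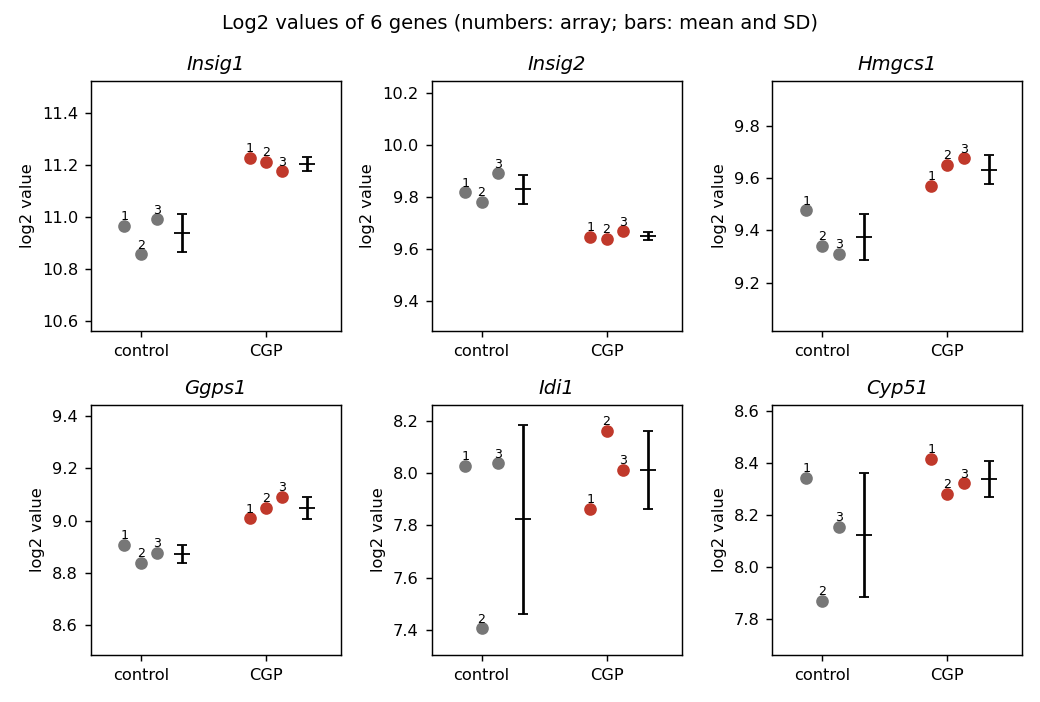
Log2 values of Insig1, Insig2, Hmgcs1, Ggps1, Idi1 and Cyp51 on each array, with the array number above each point and the mean and SD of the 3 arrays of a group beside them; every vertical axis spans nearly 1 log2 unit but starts at its own level. The groups are apart in the first 4 genes, while control array 2 (7.40 in Idi1, 7.87 in Cyp51) widens the control bars of the other two.

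None of the 20 enzymes of the pathway passed the test, at a median log2 difference of 0.04. In the steps from acetyl-CoA to isopentenyl diphosphate (5 genes tested, median 0.11), Hmgcs1, the HMG-CoA synthase of the cytosol and a classical SREBP target, came nearest. Its values were 9.48, 9.34 and 9.31 on the control arrays and 9.57, 9.65 and 9.68 on the CGP arrays. All CGP values were above all control values. The log2 difference of 0.26 ± 0.06 (SE), or 1.2-fold, had an interval of 0.12 to 0.40 and an adjusted p of 0.0623 (limma), and its size was close to that of Insig1. Hmgcs1 passed in 4 of the other 9 ways of processing and when control array 1 was left out, with adjusted p between 0.00811 and 0.0488.

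The other 4 genes of these early steps did not pass. Acat1, the mitochondrial acetyl-CoA acetyltransferase, differed by 0.11 (interval -0.02 to 0.24, adjusted p = 0.342). Mvk, mevalonate kinase, ranged from 8.71 to 8.84 on the control arrays and 8.72 to 8.82 on the CGP arrays and differed by -0.002 (interval -0.13 to 0.12). Pmvk, the next kinase, ranged from 7.16 to 7.34 and 7.29 to 7.40, with a difference of 0.11 (interval -0.03 to 0.25, adjusted p = 0.371). In Mvd, the decarboxylase that yields isopentenyl diphosphate, the CGP arrays (7.73 to 7.78) lay within the control arrays (7.68 to 7.81), and the interval ran from -0.11 to 0.12. These 4 genes overlapped between groups.

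Of the 3 enzymes that interconvert or join isoprenoid units, Ggps1 was the one with separate groups on the higher side. Ggps1 makes geranylgeranyl diphosphate, the lipid that anchors many small GTPases to membranes, so it leads away from sterols. The control arrays read 8.91, 8.84 and 8.88 and the CGP arrays 9.01, 9.05 and 9.09, a log2 difference of 0.18 ± 0.05 (SE; interval 0.07 to 0.28, limma adjusted p = 0.0905). Fdps, which makes farnesyl diphosphate at the branch point, lay the other way, at 9.69, 9.72 and 9.81 against 9.68, 9.65 and 9.58. Its groups did not overlap, though the nearest arrays nearly met, and its difference of -0.10 had an interval of -0.22 to 0.02 (adjusted p = 0.341).

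Idi1, the isomerase of isopentenyl diphosphate and a SREBP target, had the widest interval of all members. Its control arrays read 8.03, 7.40 and 8.04 and its CGP arrays 7.86, 8.16 and 8.01. Control array 2 was far below the other 5. The control SD of 0.363 was larger than that of 99.8% of all probe sets tested, and the difference of 0.19 had an interval of -0.20 to 0.58 (limma, adjusted p = 0.570). Without control array 2 the difference was -0.02. A second Idi1 probe set showed the same array low, at 7.97, 7.27 and 7.87 against 7.73, 8.07 and 7.99, and a difference of 0.22 (adjusted p = 0.527).

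The steps to squalene and lanosterol (3 genes, median -0.02) had the smallest differences of the 5 groups of members, with a median size of 0.05. Sqle, the squalene epoxidase that controls flux late in the pathway, ran from 8.41 to 8.44 on the control arrays and 8.38 to 8.44 on the CGP arrays. The groups coincided, and the difference of -0.02 had an interval of -0.12 to 0.09 (adjusted p = 0.877). Fdft1, squalene synthase, differed by -0.05 (interval -0.16 to 0.06, adjusted p = 0.585), and by 0.04 on its other probe set. Lss, which closes the rings to lanosterol, read 8.35, 8.16 and 8.42 against 8.39, 8.46 and 8.34, again with control array 2 lowest, and differed by 0.08 (interval -0.09 to 0.26).

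Between lanosterol and cholesterol, 9 enzymes had a median log2 difference of 0.03. The groups did not overlap in 3 of them (33.3%), 1 higher and 2 lower, beside 26.3% of all probe sets. Tm7sf2 and Lbr are the 2 sterol C14 reductases, which act on the same intermediate. Tm7sf2 read 8.87, 9.05 and 8.83 on the control arrays and 8.75, 8.77 and 8.69 on the CGP arrays, a difference of -0.18 (interval -0.34 to -0.03, limma adjusted p = 0.192). Lbr, also a protein of the inner nuclear membrane, read 8.63, 8.55 and 8.71 against 8.52, 8.49 and 8.53, a difference of -0.12 (interval -0.24 to 0.01, adjusted p = 0.278). Both were lower on every CGP array than on any control array, and neither passed. Sc5d, the C5 desaturase, was the third, on the higher side, with 10.40, 10.32 and 10.41 against 10.48, 10.53 and 10.48, and a difference of 0.12 (interval 0.01 to 0.23, adjusted p = 0.223).

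The remaining 6 of these enzymes overlapped between groups. Cyp51, the lanosterol 14-demethylase that acts just before the C14 reductases, read 8.34, 7.87 and 8.15 on the control arrays and 8.42, 8.28 and 8.32 on the CGP arrays. Control array 2 was again the lowest, and the control SD of 0.238 exceeded that of 97.8% of probe sets. The Cyp51 difference of 0.22 had an interval of -0.04 to 0.47 (limma, adjusted p = 0.326), and was 0.09 without that array. Hsd17b7, a 3-ketosteroid reductase, read 8.48, 8.49 and 8.64 against 8.63, 8.64 and 8.65, and differed by 0.10 (interval -0.03 to 0.23). Ebp, the sterol isomerase, differed by -0.09 (interval -0.22 to 0.04). Msmo1 and Nsdhl, which remove the C4 methyl groups, differed by 0.03 (interval -0.11 to 0.18) and 0.05 (interval -0.12 to 0.22). Dhcr7, which makes cholesterol in the last step of one branch, was at 12.80 to 12.86 on the control arrays and 12.81 to 12.85 on the CGP arrays, and its difference of -0.01 had an interval of -0.11 to 0.09.

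**Figure D3:**
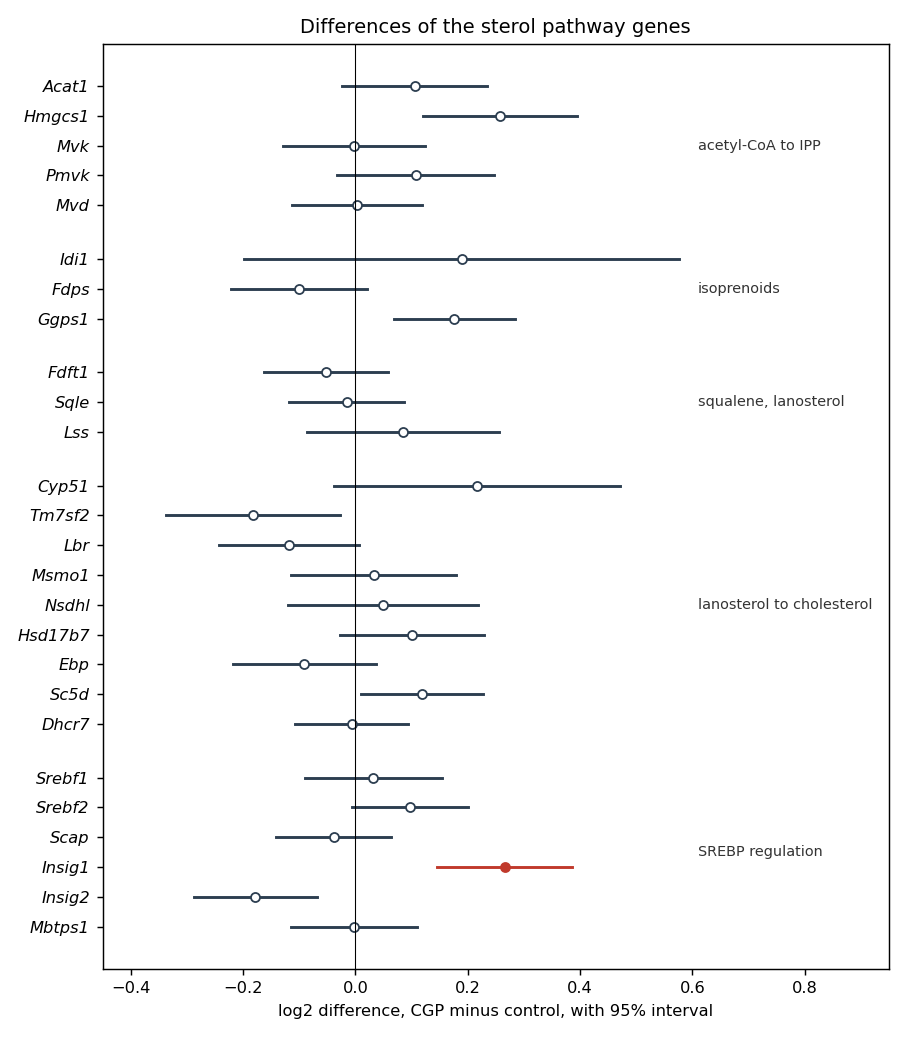
Log2 difference of CGP minus control for each of the 26 members, with its 95% interval from limma; the filled red point is the member with an adjusted p under 0.05. Only Insig1 (0.27) is filled, the intervals of Hmgcs1, Ggps1, Tm7sf2, Sc5d and Insig2 also leave out 0, and that of Idi1 is the widest (-0.20 to 0.58).

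The intervals bound how large a difference these arrays allow. In 19 of the 26 members the whole 95% interval lay within a 1.2-fold change in either direction and in all 26 within 1.5-fold. Their median SD was 0.0661 (log2) over the control arrays and 0.0424 over the CGP arrays, beside 0.0754 and 0.0592 over all probe sets. Control array 2 was the lowest of the 6 arrays in 8 of the 20 enzymes (40%), beside 28.0% of all probe sets tested. Over the 20 enzymes, the median deviation from the control mean lay between -0.03 and 0.02 on the control arrays. That is near 0 by construction, since the deviations are taken from the mean of those arrays. On the CGP arrays it lay between 0.03 and 0.10, with 12 of the enzymes having a positive difference between groups and 8 a negative one.

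On the sterol side, none of the genes tested around the pathway passed. Of 13 further genes of sterol synthesis and supply, 7 were tested and 0 passed (limma; 2 had an unadjusted p under 0.05), with a median log2 difference of 0.05. The groups did not overlap in 6 of these 7 (85.7%), 4 higher and 2 lower in the CGP group, beside 26.3% of all probe sets. The genes with an unadjusted p under 0.05 were Tmem97, a sterol-responsive membrane protein, at -0.23 (adjusted p = 0.0668), and Aacs, which feeds acetoacetate into sterol and fatty acid synthesis, at 0.19 (adjusted p = 0.108). Of 10 genes that use isoprenoids for prenylation, dolichol or coenzyme Q, 9 were tested and 0 passed (1 at an unadjusted p under 0.05), with a median of -0.05. Pggt1b, the catalytic subunit that attaches the product of Ggps1 to proteins, was that gene, at 0.18 (adjusted p = 0.189). Of 16 genes that act in the turnover of pathway proteins or drive Srebf1, 12 were tested and 0 passed (1 at an unadjusted p under 0.05), at a median of 0.02. That gene was Nr1h3, the oxysterol receptor LXR alpha, at 0.18 (adjusted p = 0.141).

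The lipogenic genes associated with SREBP-1 had more calls. All 17 listed were tested, and 4 passed, each higher in the CGP group, with a median log2 difference of 0.16 beside -0.01 over all probe sets. Lpin1, which makes diacylglycerol, read 9.31, 9.20 and 9.28 on the control arrays and 9.88, 9.90 and 9.77 on the CGP arrays, a difference of 0.58 (limma, adjusted p = 0.000883). Elovl6, a fatty acid elongase, differed by 0.34 (adjusted p = 0.00562), Acacb, an acetyl-CoA carboxylase, by 0.37 (adjusted p = 0.00909), and Fasn, the fatty acid synthase, by 0.29 (adjusted p = 0.0109). Of all probe sets, 3.53% were called. The groups did not overlap in 11 of the 17 (64.7%), each higher in the CGP group, beside 26.3% of all probe sets. Of these 4 calls, those of Lpin1 and Elovl6 held with each array left out in turn. That of Acacb was lost without CGP array 2 (adjusted p = 0.0590), and that of Fasn without control array 3 or any of the CGP arrays (adjusted p between 0.0510 and 0.0613).

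**Figure D4:**
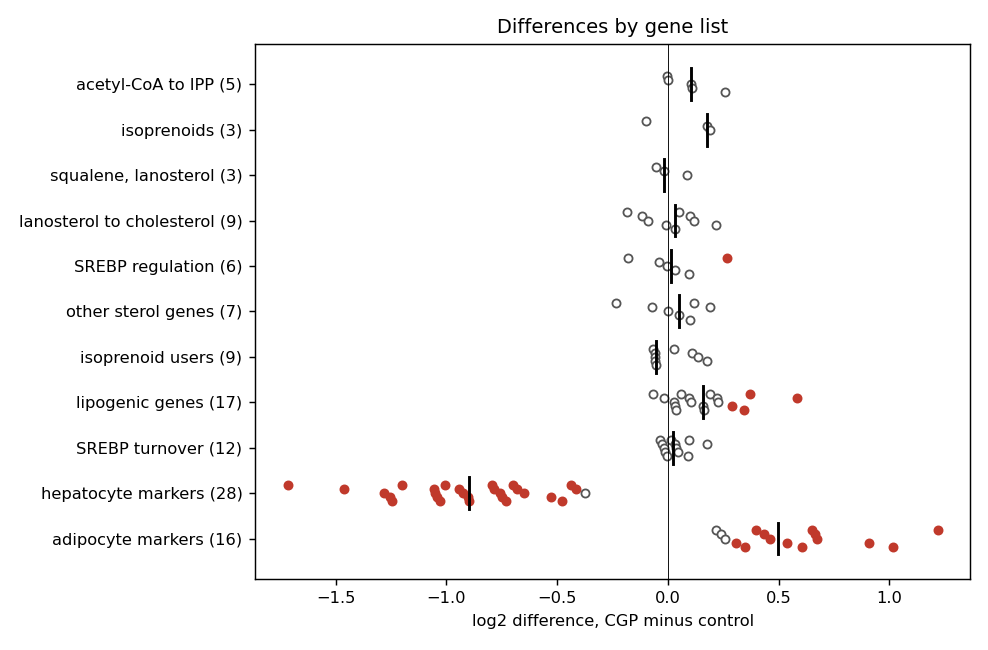
Log2 difference of CGP minus control for each gene tested in the 5 groups of members, the 4 other pathway lists and the hepatocyte and adipocyte markers, with the number tested in brackets; filled red points passed at an adjusted p under 0.05 and the vertical bar is the median of the list. The medians of the 5 groups of members run from -0.02 (squalene, lanosterol) to 0.18 (isoprenoids, 3 genes). The lipogenic genes have a median of 0.16, and the markers of hepatocytes (median -0.90) and adipocytes (0.50) lie far to either side.

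Markers of other cell types that make or store lipid moved with the groups. Lower levels in the CGP group were called in 27 of 28 hepatocyte markers, and their summed linear level was 47978 to 48602 on the control arrays and 28754 to 29524 on the CGP arrays. All 16 adipocyte markers tested had a positive difference, 13 of them called as higher, and their summed level was 32819 to 33572 against 45998 to 46566. Ucp1, the uncoupling protein of brown fat, differed by 1.22, and albumin (Alb), the main protein made by the liver, by -0.42. Of these markers, Cyp7a1 and Cyp1a2 were above background on 3 of the 6 arrays, and the adipokine gene Lep, on none, was not tested; the others were above it on all 6. Hepatocytes and adipocytes also express the sterol pathway, the Insig genes and the lipogenic genes. The part of these cells in the values of the members, Insig1, Insig2 and Hmgcs1 among them, and of the lipogenic genes was not tested. In pooled tissue fewer cells of a type and less RNA per cell cannot be told apart. The summed levels of the adrenal's own markers differed less, though the brightest genes weigh most in such sums. Over 10 genes of the steroid-making cortex the CGP sum was 1.06 times that of the controls. There was 1 call (Cyp11b2, higher by 0.50, limma adjusted p = 0.00144). Of these 10 genes, 9 had a positive difference. The groups did not overlap in 60% of them, 5 higher and 1 lower, beside 26.3% of all probe sets. Over 8 chromaffin genes the sum was 0.990 times that of the controls, with 0 calls (limma, 1 at an unadjusted p under 0.05). All 8 fibroblast markers had a positive difference, and their summed level was 1.10 times that of the controls. Of these 8, 2 were called as higher (Mfap5 at 0.30 and Pi16 at 0.22), where 3.53% of all probe sets were called. The sums over 6 endothelial and 7 macrophage markers were 1.01 and 0.962 times those of the controls. There were 0 calls in both (limma, 1 and 2 at an unadjusted p under 0.05). Groups without overlap made up 37.5% of the chromaffin, 50% of the fibroblast, 66.7% of the endothelial and 42.9% of the macrophage markers. In that order 1, 4, 3 and 1 were higher and 2, 0, 1 and 2 lower, beside 26.3% of all probe sets. Over the whole table, the SD of the difference between arrays was 0.135 to 0.177 within the control group, 0.103 to 0.128 within the CGP group and 0.160 to 0.218 across groups.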

How the data were processed

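RNA of the pooled adrenals was hybridised to 6 Affymetrix arrays, 3 control and 3 CGP. Titles of the samples gave the group and the number of each array. The values used are log2 expression levels of 25150 probe sets on each array, in 1 table as deposited by the authors. Per the submitters' processing notes, RMA (robust multi-array average) and Partek were used, in versions not stated. RMA quantile normalises the arrays, which can hide a shift shared by most genes. The genome build is not given in the sources used here. Arrays have no read depth, so their number limits the precision.

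Probe sets with 1 gene symbol in the platform annotation and a log2 value of 6 or more on 3 or more arrays were tested (16034), and probe sets with several symbols were left out. CGP and control arrays were compared with limma 3.58.1 under R 4.3.3 (functions lmFit and eBayes, no covariates, two-sided). P-values received the Benjamini-Hochberg adjustment over all of these probe sets, and an adjusted p under 0.05 was a call. Intervals are at 95% from the same test. No set test was run. Marker levels were summed on the linear scale. Levels of different genes were not compared, since probe sets differ.

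The members and the gene lists were chosen with earlier results of these data known. Genes were named by rule: every member, the genes of the other lists that passed, and up to 2 markers of a cell type. Tmem97, Aacs, Pggt1b, Nr1h3, Alb, Cyp7a1, Cyp1a2 and Lep were named after their values had been seen. Promoter windows were those of RefSeq on GRCm38.p6, searched with Python 3.11.15, and the plots were drawn with matplotlib 3.10.9. Alternatives covered normalisation, the filter, the probe sets tested, the variance model, array weights, the mean of a gene's probe sets, a block for the array number, and the omission of each array.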

Additional observations from a re-analysis of the deposited data

How the results depend on the processing

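The difference of Insig1 stayed positive in every setting run. The number of members called, 1 as reported, was 2 after quantile normalisation, 2 with the filter at a log2 of 7, 0 when all probe sets were tested with or without a name, 4 with a variance trend and robust prior, 4 with array weights, and 0 to 2 with an array left out. The 2 members were Insig1 and Hmgcs1, and the 4 added Ggps1 and Insig2 (lower). Insig1 had an adjusted p of 0.0791 when all probe sets were tested. Same-numbered arrays did not deviate together (correlations of -0.357 to -0.118), so the numbers were not taken as pairs. With the array number as a block, the replicate block, 0 members were called, with an adjusted p of 0.142 for Insig1, and 224 of all probe sets and 1 gene of the other pathway lists (Lpin1) were called. The count over all probe sets, 566 as reported, was 1261 with the variance trend, 1665 with array weights, and 236 to 1099 with an array left out. The 4 calls in the other pathway lists became 7 with the filter at 7, 8 with the variance trend, 8 with array weights, and 2 to 5 with an array left out. Members near 0 had no stable direction. Mvd was -0.014 after quantile normalisation, -0.0044 after median centring and -0.0017 with array weights. With an array left out, the differences ran from -0.032 to 0.031 in Mvd, -0.041 to 0.029 in Mvk, -0.020 to 0.30 in Idi1, -0.017 to 0.071 in Msmo1, -0.022 to 0.0051 in Dhcr7, -0.020 to 0.030 in Mbtps1, -0.00030 to 0.072 in Srebf1 and -0.034 to 0.0002 in Sqle. The cause of these changes was not tested.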
